A study of Caenorhabditis elegans with 6 samples.

Results

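Animals reuse purines through a small set of salvage enzymes and dispose of the surplus by oxidation, and 5 genes of *Caenorhabditis elegans* that encode such enzymes are described here out of 18811 genes in the deposited tables. They were chosen by name: *hprt-1* (Y105E8B.5), *aprt-1* (T19B4.3, listed in the tables under that sequence name), *pnp-1* (K02D7.1), the adenosine kinase gene R07H5.8, listed as *adk-1*, and *xdh-1* (F55B11.1). The files paired each with a gene identifier, and all 5 were found. RNA of whole worms was sequenced in 6 libraries, 3 from worms on *Escherichia coli* BW25113 and 3 from worms on the mutant strain named purE. All worms grew at 20 °C on nematode growth medium, were moved to the bacteria at larval stage 4 and were collected as synchronized adults. The labels do not give the worm strain, the age in days, the number of worms per library or the nature of the bacterial lesion.

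Purine nucleotides can be built from small precursors or recovered from ready-made bases and nucleosides taken up with food or released when nucleic acids turn over. In the salvage route, a purine nucleoside phosphorylase splits nucleosides such as inosine and guanosine into base and sugar phosphate, and phosphoribosyltransferases join the free base to phosphoribosyl pyrophosphate to give the nucleotide in a single step. Adenosine kinase instead phosphorylates the intact nucleoside, and xanthine dehydrogenase oxidizes hypoxanthine and xanthine to uric acid, which takes the base out of reach of salvage. In bacteria, purE encodes an enzyme of purine synthesis from small precursors, so the comparison sets the worm's purine salvage genes on a diet of this strain beside the same genes on BW25113.

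Each library held between 21880627 and 22607939 estimated counts in all, and a floor of 3 counts corresponded to 0.133 to 0.137 CPM (the count scaled to sequencing depth), which covers counting error only. CPM values were scaled with TMM factors, which correct for differences in library composition. Nothing in the labels says whether replicates were separate cultures of worms, so p-values measure the spread between these 6 samples, which may be technical. The libraries carried RNA of the tissues of a whole adult, with reads in all markers in the tables of intestine, body wall muscle, neurons and the hermaphrodite germline. Sperm markers stood apart in 2 libraries: the summed level of 17 markers was 494 to 857 CPM on BW25113, 1071 CPM in purE replicate 1, 8671 CPM in purE replicate 2 and 4473 CPM in purE replicate 3. Epidermal and cuticle markers summed to 3813 to 4266 CPM on BW25113 and to 2416, 7747 and 6573 CPM in purE replicates 1, 2 and 3. Body wall muscle markers summed to 6563 to 7154 CPM on BW25113 and to 7419, 11830 and 10460 CPM in the same purE libraries. Early embryo markers summed to 132 to 133 CPM on BW25113 and 84.3 to 97.2 CPM on purE. Oocyte and hermaphrodite germline markers summed to 17040 to 22380 CPM on BW25113 and to 14990, 10050 and 16720 CPM in purE replicates 1, 2 and 3. Intestine markers summed to 35030 to 40100 CPM on BW25113 and to 30890, 20110 and 34960 CPM in the same purE libraries. In whole worms, fewer cells of a type and less RNA per cell cannot be told apart.

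All 5 genes had a higher mean CPM on purE, and the quasi-likelihood test of edgeR called none of them after adjustment. The log2 fold change of purE over BW25113 was above 0 for all 5, as for 6266 of the 12144 genes tested. Its median was 0.68 over the 5 genes, against 0.03 over the 12144. For 4 of the 5 genes, *hprt-1*, *aprt-1*, *pnp-1* and *xdh-1*, every purE library lay above every BW25113 library, which held for 13.1% of all genes tested. That count was 3 under each of 4 other scalings (DESeq2 size factors, library size alone, upper quartile and the deposited FPKM), where *pnp-1* overlapped. The share over all genes was not computed for those scalings, and the 13.1% belongs to the TMM scaling only. An unadjusted p under 0.05 on the higher side was found for 3 of the 5 genes, *hprt-1*, *aprt-1* and *xdh-1*, and for 12.7% of all genes. With library size alone it was found for 1, *hprt-1*, with DESeq2 size factors or no low-count filter for 2, *hprt-1* and *aprt-1*, and with 1 library left out for 1 or 2 of the 5. The number of all genes with such a p, in either direction, moved as well. It was 2004 in the main fit, 1656 with library size alone, 1915 with DESeq2 size factors and 2835 with no low-count filter. With 1 library left out it was 1267 to 4273, and the 12.7% belongs to the main fit only. The Benjamini-Hochberg adjusted p was under 0.05 for 0 of the 5 and for 0% of all genes in edgeR. DESeq2 called 1 of the 5, *hprt-1*, as higher, beside 6.31% of all genes to which it gave an adjusted p. With limma-voom 0 of the 5 were called, and 0 genes over the whole table. Without purE replicate 1, edgeR called 14.5% of all genes in either direction and 0 of the 5. The deposited count of *hprt-1* was tied to that of its neighbour *riok-2*, as described below. For both genes summed the diets overlapped, with a log2 fold change of 0.24 in edgeR.

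**Figure D1:**
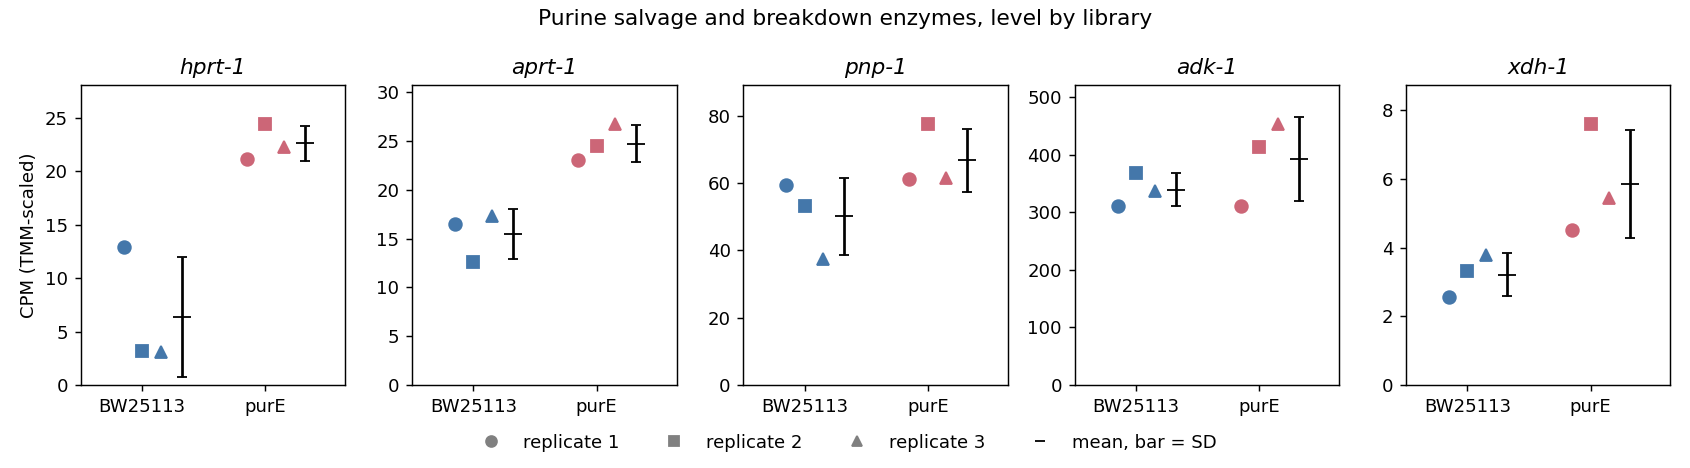
TMM-scaled CPM (vertical axis, starting at 0) of each gene in the 3 BW25113 and 3 purE libraries, with the marker shape giving the replicate and the black bar the mean and SD of a diet. The purE points lie above the BW25113 points for all genes but *adk-1*, where 311 and 312 CPM in the 2 replicates numbered 1 sit side by side.

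The genes differed widely in abundance. On the deposited FPKM scale, which divides by gene length, the order was *adk-1*, *pnp-1*, *aprt-1*, *hprt-1* and *xdh-1* in all 6 libraries. *adk-1* stood at 252 to 320 FPKM and made up 68.6% to 80.8% of the summed FPKM of the 5 genes, at least 4.78 times the level of *pnp-1* in the same library. *pnp-1* ranged from 37.8 to 63.8 FPKM and *aprt-1* from 20.1 to 45.5 FPKM, so these neighbours overlapped across libraries although *pnp-1* was 1.14 to 2.23 times higher within each. *aprt-1* and *hprt-1* overlapped across libraries too, with *hprt-1* at 3.5 to 28.9 FPKM. *xdh-1* was the least abundant, at 0.62 to 1.6 FPKM, and did not overlap *hprt-1*.

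**Figure D2:**
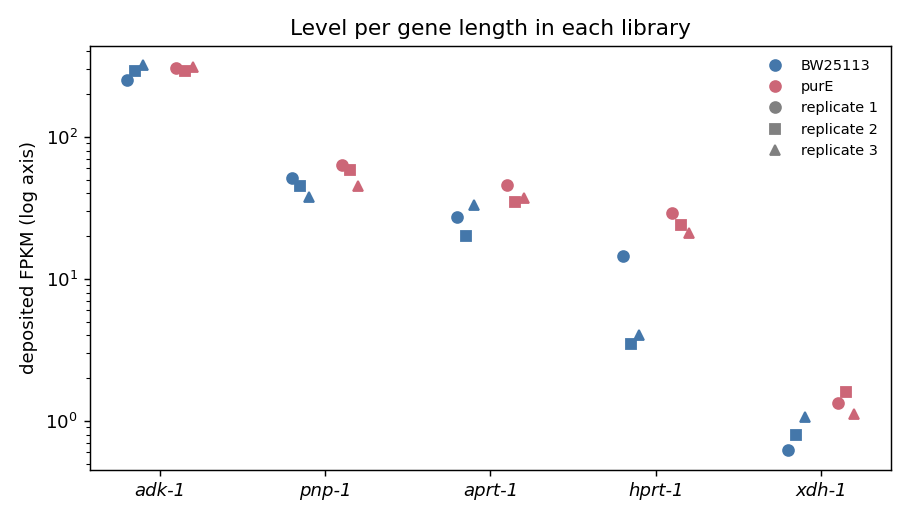
Deposited FPKM (log axis) of the 5 genes in each library, ordered by their mean, with BW25113 libraries left and purE libraries right. The level of *adk-1* is 252 to 320 FPKM throughout, while *xdh-1* stays between 0.62 and 1.6 FPKM.

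The first step of base salvage belongs to *pnp-1* (WBcel235, chromosome IV, 292423 to 298304, reverse strand), the purine nucleoside phosphorylase gene. It stood at 59.4, 53.3 and 37.5 CPM in BW25113 replicates 1, 2 and 3 and at 61.2, 77.5 and 61.6 CPM in purE replicates 1, 2 and 3. The groups did not overlap on this scale, but BW25113 replicate 1 and purE replicate 1 were 59.4 and 61.2 CPM, close to each other. The means were 50.1 ± 11.35 and 66.8 ± 9.34 CPM (SD, n = 3), and the log2 fold change was 0.42 ± 0.26 (SE) with a 95% interval of -0.17 to 1.00 and an edgeR adjusted p of 0.449. It was 0.16 without BW25113 replicate 3, the lowest library.

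*hprt-1* (WBcel235, chromosome I, 14657355 to 14661495, forward strand) encodes the phosphoribosyltransferase that returns hypoxanthine and guanine to their nucleotides. It stood at 12.9, 3.18 and 3.05 CPM on BW25113 and at 21.2, 24.4 and 22.2 CPM on purE, in the order of the replicates. All purE libraries were above all BW25113 libraries, the purE libraries were close together, and BW25113 replicate 1 lay between the other BW25113 libraries and the purE libraries. The log2 fold change was 1.83 ± 0.56 (SE), a 3.55-fold difference, with a 95% interval of 0.56 to 3.10 and an edgeR adjusted p of 0.150. DESeq2 gave 1.73 with an adjusted p of 0.0295. Without BW25113 replicate 1 the edgeR value was 2.83 with an adjusted p of 0.290.

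The deposited count of *hprt-1* was tied to that of its neighbour. The gene *riok-2*, which encodes a kinase of the RIO family with a role in ribosome assembly, lies on the same strand at 14652116 to 14657275 and ends 79 bases before *hprt-1* begins. *hprt-1* carried a fractional estimated count in all 6 libraries, whereas the other 4 genes had whole counts in all 6. In every library the counts of *hprt-1* and *riok-2* summed to a whole number, such as 287.75 and 1087.25 to 1375 in BW25113 replicate 1, and 69.14 and 1228.86 to 1298 in BW25113 replicate 2. Of the 1031 genes with a fraction in all 6 libraries, *riok-2* was the only 1 whose sum with *hprt-1* was whole in each to within 0.015. Fractions that complement each other in this way are what a counter leaves when it divides reads between both genes, and the files do not record how many reads were divided.

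The share of the joint count given to *hprt-1* was 20.9%, 5.33% and 3.53% in BW25113 replicates 1, 2 and 3 and 28.9%, 29.9% and 24.4% in purE replicates 1, 2 and 3. The shares did not overlap between diets, and BW25113 replicate 1 was again the nearest to purE. *riok-2* itself stood at 48.6, 56.7 and 83.9 CPM on BW25113 and 52.1, 57.3 and 68.8 CPM on purE, with a log2 fold change of -0.09 ± 0.27 and an edgeR adjusted p of 0.868. With both genes summed into 1 the levels were 61.5, 59.9 and 86.9 CPM against 73.3, 81.7 and 91.1 CPM, and the groups overlapped. The log2 fold change of the sum was 0.24 ± 0.24 (SE), with an edgeR adjusted p of 0.606. The part of the read division in the difference of *hprt-1* was not tested.

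**Figure D3:**
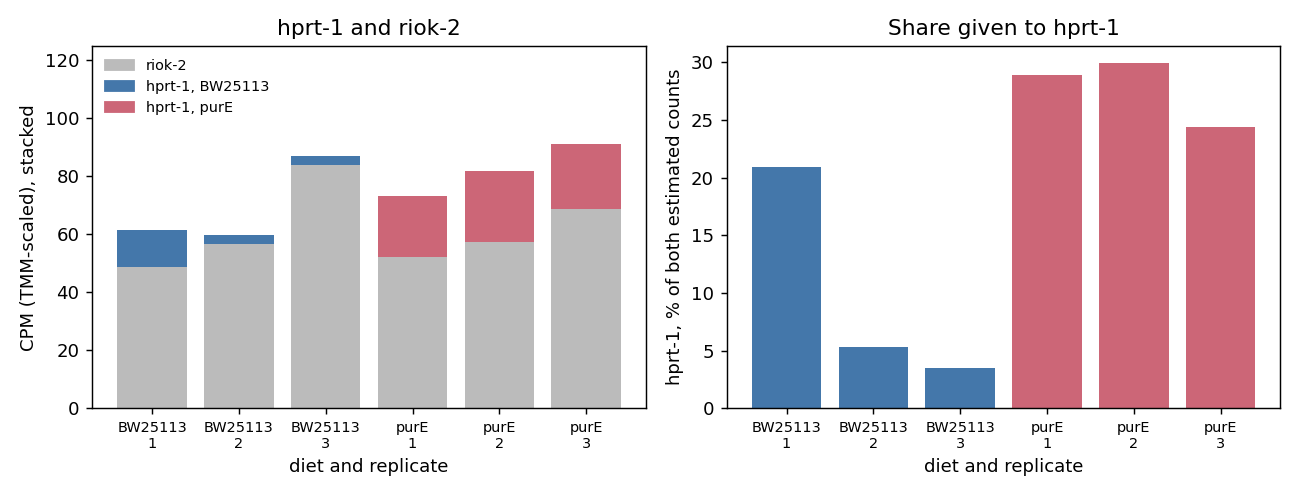
Left, TMM-scaled CPM of *riok-2* (grey) with *hprt-1* stacked on it (coloured by diet) in each library, both from an axis at 0, and right, the percentage of the joint estimated count given to *hprt-1*. The stacked total overlaps between diets, whereas the share is 3.53% to 20.9% on BW25113 and 24.4% to 29.9% on purE.

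*aprt-1* (WBcel235, chromosome I, 5678638 to 5679862, forward strand) encodes adenine phosphoribosyltransferase, which turns adenine into AMP. It stood at 16.5, 12.6 and 17.3 CPM on BW25113 and at 23.0, 24.4 and 26.7 CPM on purE, in the order of the replicates. The diets did not overlap. On the deposited FPKM scale the BW25113 libraries ran from 20.1 to 33.2, close to the lowest purE library at 34.8. The means were 15.5 ± 2.53 and 24.7 ± 1.88 CPM (SD, n = 3), a 1.6-fold difference and a log2 fold change of 0.68 ± 0.25 (SE), with a 95% interval of 0.10 to 1.25 and an edgeR adjusted p of 0.221. It was 0.43 without BW25113 replicate 2. The last 26 bases of the gene overlap *unc-40*, a netrin receptor gene on the other strand, which stood at 23.3 to 42.9 CPM on BW25113 and 12.9 to 22.3 CPM on purE. Its log2 fold change was -0.83 ± 0.33 (SE) with an edgeR adjusted p of 0.248, opposite in sign to that of *aprt-1*. Whether counting used strand is not given in the sources used here.

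*adk-1* (WBcel235, chromosome IV, 11209309 to 11210831, reverse strand) encodes adenosine kinase, which makes AMP directly from adenosine. It stood at 311, 369 and 338 CPM on BW25113 and at 312, 414 and 454 CPM on purE, in the order of the replicates. The diets overlapped, with purE replicate 1 at the lower end of the BW25113 range. The log2 fold change was 0.21 ± 0.25 (SE), with a 95% interval of -0.36 to 0.79 and an edgeR adjusted p of 0.658. It was -0.11 when purE replicates 2 and 3, the libraries with the most sperm marker RNA, were left out. The overlap of 53 bases with R07H5.9 on the other strand involved a gene with at most 0.95 CPM in any library.

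*xdh-1* (WBcel235, chromosome IV, 14401114 to 14412894, reverse strand) encodes xanthine dehydrogenase, the enzyme of purine breakdown among the 5. It stood at 2.55, 3.32 and 3.78 CPM on BW25113 and at 4.52, 7.60 and 5.46 CPM on purE, in the order of the replicates. The diets did not overlap, and purE replicate 2 was the highest. The means were 3.22 ± 0.62 and 5.86 ± 1.58 CPM (SD, n = 3), a 1.82-fold difference and a log2 fold change of 0.86 ± 0.36 (SE), with a 95% interval of 0.03 to 1.69 and an edgeR adjusted p of 0.285. With purE replicates 2 and 3 left out it was 0.50.

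**Figure D4:**
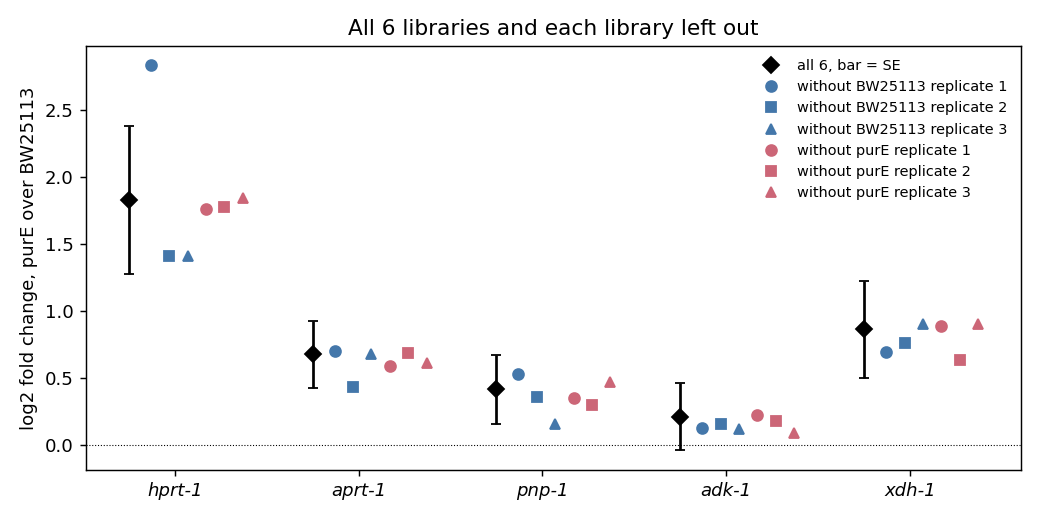
Log2 fold change of purE over BW25113 for each gene with all 6 libraries (black diamond, bar = SE) and with each library left out in turn (coloured markers). Every value is above 0, and *hprt-1* moves most, from 1.41 to 2.83, with the highest value without BW25113 replicate 1.

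Sperm marker RNA was higher on purE too, most of all in purE replicates 2 and 3, where epidermal and muscle marker RNA was highest as well. Intestine and hermaphrodite germline marker RNA was lowest in purE replicate 2. The part of these tissues in the results of the 5 genes was not tested. In purE replicate 1, where sperm markers summed to 1071 CPM, *hprt-1* and *aprt-1* were at 21.2 and 23.0 CPM, against 24.4 CPM for both genes in purE replicate 2, where sperm markers summed to 8671 CPM. *xdh-1* was at 4.52 and 7.60 CPM in the same libraries. Of 40 sperm markers listed, 17 were found and 15 tested. All 15 had an unadjusted p under 0.05 in edgeR on the higher side, beside 12.7% of all genes. For 14 every purE library lay above every BW25113 library, beside 13.1% of all genes. None passed the adjusted threshold in edgeR, as for all genes. With purE replicates 2 and 3 left out, an alternative chosen after seeing the data in which the lone purE library is assumed to vary like the others, the log2 fold change was 1.76 for *hprt-1*, 0.59 for *aprt-1* and 0.31 for *pnp-1*, each with an edgeR adjusted p of 1.00.

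Within-library ratios, which do not depend on scaling between libraries, compared genes at linked steps of the salvage route. *hprt-1* and *xdh-1* both use hypoxanthine, and their log2 FPKM ratio was 4.55, 2.15 and 1.92 on BW25113 and 4.44, 3.90 and 4.24 on purE. The diets overlapped through BW25113 replicate 1, and the difference of means was 1.32 with an exact two-sided permutation p of 0.4. The log2 ratio of *aprt-1* over *hprt-1* was 0.90, 2.52 and 3.04 on BW25113 and 0.66, 0.54 and 0.81 on purE, a difference of -1.48. That of *pnp-1* over *hprt-1* was 1.82, 3.68 and 3.22 on BW25113 and 1.14, 1.28 and 1.08 on purE, a difference of -1.74. Both ratios were lower in all 3 purE libraries, and each of the 3 ratios with *hprt-1* carries its read division with *riok-2*. The log2 ratio of *adk-1* over *aprt-1*, the routes from adenosine and from adenine to AMP, was 3.22, 3.85 and 3.27 on BW25113 and 2.74, 3.06 and 3.07 on purE, a difference of -0.49, and was lower in all 3 purE libraries. For each of the latter 3 ratios the exact two-sided permutation p was 0.1, the smallest that 3 libraries against 3 can give, and 0.133 after Benjamini-Hochberg adjustment over the 4 ratios.

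Genes of neighbouring purine steps were described from lists in the same way. All 10 genes of purine synthesis from small precursors were tested, all 10 with a log2 fold change above 0 (median 0.36). In DESeq2 *adss-1*, 1 of these 10, had -0.07. For comparison with this list and those below, 6266 of the 12144 genes tested were above 0. Of the 10 genes, 0 passed the adjusted threshold in edgeR or in DESeq2. None had an unadjusted p under 0.05, and for 4 of the 10 every purE library lay above every BW25113 library, beside 13.1% of all genes. Without purE replicates 2 and 3 the median of these 10 was 0.53, against 0.50 for the 5 salvage and breakdown genes. The smallest p was that of *paic-1* (B0286.3), which encodes an enzyme of the carboxylation step at which bacterial purE also acts, at 7.43, 9.27 and 12.6 CPM on BW25113 and 18.1, 14.6 and 12.9 CPM on purE. Its log2 fold change was 0.64 ± 0.30 (SE) with an edgeR adjusted p of 0.347.

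Purine deaminases, nucleotide kinases and *ahcy-1*, the gene of the hydrolase that releases adenosine from adenosylhomocysteine, gave 5 of 8 positive values and a median of 0.11, with 0 called in edgeR. *ampd-1*, the AMP deaminase gene, had the smallest p of these and stood at 36.3, 37.9 and 54.2 CPM on BW25113 and 56.4, 81.5 and 60.5 CPM on purE, a log2 fold change of 0.63 ± 0.27 with an edgeR adjusted p of 0.289. Its lowest purE library was just above its highest BW25113 library. Of 7 equilibrative nucleoside transporters, which carry nucleosides across membranes, 3 were positive, the median was -0.26, and 0 were called in edgeR. *ent-3* stood at 0.224, 0.0923 and 0.381 CPM on BW25113 and 0.478, 5.28 and 1.5 CPM on purE, below the floor of 3 counts in BW25113 replicate 2, so its fold change rests on few reads. Its log2 fold change was 3.32 ± 0.93 (edgeR adjusted p of 0.133, DESeq2 adjusted p of 0.0101), and it was highest in the libraries with the most sperm marker RNA, whose part in the result was not tested.

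Pyrimidine genes, which handle the other class of bases, gave 8 of 11 positive values and a median of 0.19, with 0 called in edgeR. The smallest p among them was that of *dpyd-1*, the dihydropyrimidine dehydrogenase gene of pyrimidine breakdown, at 24.7, 24.5 and 28.9 CPM on BW25113 and 31.9, 59.3 and 47.9 CPM on purE. Its log2 fold change was 0.83 ± 0.28 with an edgeR adjusted p of 0.185, and the diets did not overlap. Xanthine dehydrogenase needs a molybdenum cofactor, and of 5 tested genes for that cofactor and for sulfite oxidase, another enzyme that uses it, 3 were positive with a median of 0.31 and 0 were called in edgeR. *moc-3*, which had the smallest p of these, had a log2 fold change of -0.70 ± 0.41 with an edgeR adjusted p of 0.430.

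**Figure D5:**
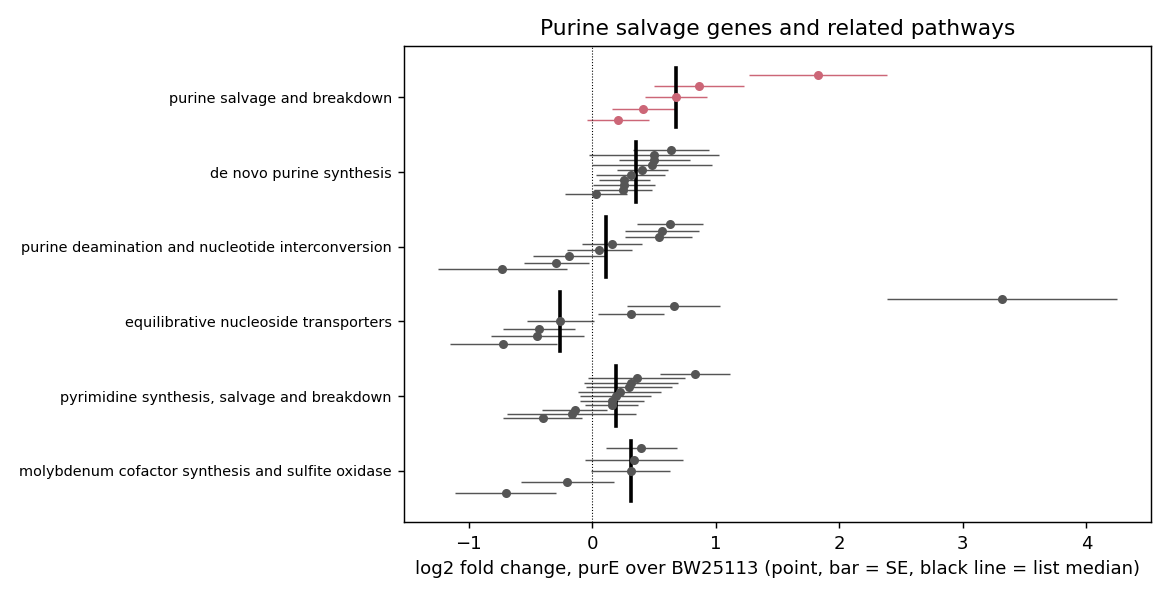
Log2 fold change of purE over BW25113 (horizontal axis) for every tested gene of the 5 salvage and breakdown genes (red) and of 5 related gene lists (grey), with SE bars and the list median as a black line. The medians are 0.68 for salvage and breakdown, 0.36 for purine synthesis and between -0.26 and 0.31 for the other lists.

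The 5 genes did not share a single pattern over the 6 libraries. The profile of *hprt-1* used here carries its read division with *riok-2*. As a description of 6 libraries that share their scaling, the Pearson r of log2 CPM was 0.84 between *hprt-1* and *aprt-1*, 0.83 between *hprt-1* and *pnp-1* and 0.77 between *aprt-1* and *xdh-1*, and only 0.28 between *hprt-1* and *adk-1*. Among 7405 other genes averaging 5 CPM or more, the 3 most like *hprt-1* were *dnc-5*, *mtch-1* and *lpd-5*, with r of 0.99, 0.99 and 0.98 over 6 libraries. Their log2 fold changes were 0.28, 0.27 and 0.41, each smaller than the 1.83 of *hprt-1*, and their Spearman rho with it was 0.89, 0.94 and 0.94. BW25113 replicate 1 was the highest BW25113 library for each of them, with *mtch-1* at 153 CPM there against 121 and 117 CPM in the others.

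Those most like *aprt-1* were D1086.7, *cah-5* and F13C5.5, with r of 0.99, 0.97 and 0.97, and those most like *pnp-1* were F53F10.2, Y73C8B.3 and *skr-4*, with r of 0.99, 0.98 and 0.98. For *adk-1* they were T12B5.15, *trap-1* and *mboa-6*, with r of 0.98, 0.97 and 0.97. For *xdh-1* they were *ifb-2*, an intermediate filament gene of the intestine, *cpna-1* and *swt-3*, with r of 0.995, 0.994 and 0.994. *ifb-2* stood at 58.1, 83.1 and 110 CPM on BW25113 and 122, 308 and 184 CPM on purE, the same order of libraries as *xdh-1*. It is 1 of the 7 intestine markers, whose sum was lowest in purE replicate 2, where *ifb-2* was highest. The median log2 fold change of those 7 markers was 0.07. An r of at least 0.95 was reached by 154 of 7406 genes for *xdh-1*. It was reached by 13 of 7405 for *hprt-1*, 17 for *aprt-1*, 40 for *pnp-1* and 10 for *adk-1*. With 6 libraries and so many genes compared, unrelated genes can reach such values too, and how many would was not computed.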

How the data were processed

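Estimated counts per gene, some with fractions, were deposited by the authors as read counts, per the file headers, with between 91.0% and 92.2% of values whole in a library. FPKM values, counts scaled to gene length and library size by the authors, stood beside them, per the file headers. The submitters' processing notes name the build WBcel235, while an aligner, a counter and a strand setting were not given in the sources used here. Coordinates came from the Ensembl 115 annotation of that build. Estimated counts were rounded to whole numbers, and 12144 of 18811 genes passed edgeR's default filter. The quasi-likelihood test of edgeR 4.0.16 (R 4.3.3), two-sided and with TMM scaling, compared the diets, p-values were adjusted by Benjamini-Hochberg over the 12144 genes, and the threshold was 0.05. Standard errors and 95% intervals were derived from the F statistic. Log2 CPM used a prior count of 2. Ratios used deposited FPKM and an exact permutation test.

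Named genes were the 5 enzymes, the 3 genes of highest Pearson r with each among genes of at least 5 CPM, and from each related list the called members or, with none called, that of smallest p. The members and lists were chosen with earlier results of these data known. Lists were matched by sequence name first, since the symbol *pacs-1* belongs to another gene than B0286.3. Of 7 genes listed for the molybdenum cofactor 6 were found and 5 tested. The alternatives were 2 other filters, 3 other scalings, DESeq2 1.42.0, limma-voom (limma 3.58.1), limma on log2(FPKM + 1) and log2(FPKM + 0.1) with at least 1 FPKM in 3 libraries, the replicate number as a block, each library left out, and the 100 most abundant genes removed. Added after seeing the data were *hprt-1* with *riok-2* summed, purE replicates 2 and 3 left out, and the count of non-overlapping genes under other scalings. The procedures were also run on simulated data as a check of the code, and no result here rests on that check. Between libraries of 1 diet the chi-square per degree of freedom was 42.5 to 350, so none were counted as duplicates.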

Additional observations from a re-analysis of the deposited data

How the results depend on the processing

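Of 91 values of the 5 genes' log2 fold changes under alternatives, 89 kept their direction and their side of the threshold. The others were *hprt-1* with the DESeq2 test, at 1.73 and past the threshold, and *adk-1* without purE replicates 2 and 3, at -0.11. Most alternatives, like the main fit, called 0 genes over the whole table, so keeping the side of the threshold says little about the 5 genes. The 89 include *hprt-1* summed with *riok-2*, although its value fell from 1.83 to 0.24. The values ranged from 0.24 (summed with *riok-2*) to 2.83 for *hprt-1*, 0.43 to 0.71 for *aprt-1*, 0.16 to 0.53 for *pnp-1* and 0.37 (on log2(FPKM + 1)) to 0.91 for *xdh-1*. The 4 ratios kept their direction under all 7 alternatives each, from 0.85 to 2.16 for *hprt-1* over *xdh-1*, -2.11 to -1.04 for *aprt-1* over *hprt-1*, -2.28 to -1.35 for *pnp-1* over *hprt-1* and -0.60 to -0.29 for *adk-1* over *aprt-1*. The cause was not tested for any of these shifts.

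Genes called over the whole table numbered 0 in edgeR, with 2004 at an unadjusted p under 0.05, 1079 with DESeq2, 2 with the replicate block, and between 0 and 1852 when 1 library was left out, the 1852 without purE replicate 1. The deviations of same-numbered libraries had correlations of -0.14, -0.17 and 0.14, and those of differently numbered libraries ranged from -0.17 to 0.21. With 3 libraries per diet these values cannot decide whether replicate numbers pair the libraries. With the replicate block *hprt-1* had 2.19 with an edgeR adjusted p of 0.185.

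With 1 library left out the list medians ranged from 0.43 to 0.69 for salvage and breakdown, 0.134 to 0.400 for purine synthesis, -0.0481 to 0.194 for interconversion, -0.389 to -0.170 for transporters, 0.0232 to 0.187 for pyrimidine genes and -0.00105 to 0.282 for the molybdenum cofactor. By library size alone the medians were -0.00513 for interconversion and 0.22 for the cofactor, and with DESeq2 0.21 for the cofactor. Without purE replicates 2 and 3 they were 0.50, 0.53, -0.0395, 0.0403 and 0.0795 for salvage, purine synthesis, transporters, pyrimidine genes and the cofactor. With DESeq2, 1 of the 5 salvage and breakdown genes and 1 of the 7 transporters were called as higher, beside 6.31% of all genes to which it gave an adjusted p. Without purE replicate 1, edgeR called 1 of the 8 interconversion genes and 2 of the 7 transporters, beside 14.5% of all genes in either direction. In the main edgeR fit 0 members of these lists were called. Depth limits *xdh-1*, at 57 to 144 counts, and *hprt-1*, at 69.14 and 80.48 counts in BW25113 replicates 2 and 3.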
